A study of Mus musculus with 25 samples.

Results

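The genes described here are Trp53, which encodes the tumour suppressor p53, and 6 genes that act in its feedback loops, Mdm2, Mdm4, Ccng1, Cdkn1a, Ppm1d and Rchy1. These 7 genes, and the lists of other genes used below, were chosen by name with earlier results of these data known. Their counts beside the share over all genes are therefore a description. The 7 were looked up in the annotation of the array. Of the 7, 5 had a probe set of their own among 19938 such genes, and these 5 passed the filter on dim signals that left 15951 genes for testing. Cdkn1a was listed only on a probe set shared with a second symbol, 4930567H12Rik, and its values are given under that reservation. Trp53 had no listed probe set and is not analysed here, so the p53 genotype could not be checked on its own transcript.

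DNA damage stabilises p53, a transcription factor that then switches on genes of cell cycle arrest, repair and death. Several of its targets feed back on it: Mdm2 is a ubiquitin ligase that marks p53 for degradation, Rchy1 (also called Pirh2) is a further p53-induced ligase, Ppm1d (Wip1) is a phosphatase that reverses damage-induced phosphorylations, and Ccng1 (cyclin G1) binds the phosphatase PP2A and acts on Mdm2. Mdm4, a relative of Mdm2, binds the activation domain of p53 and restrains it. Cdkn1a (p21) is the arrest effector of the pathway, an inhibitor of cyclin-dependent kinases. In liver, diethylnitrosamine (DEN) is converted by hepatocytes into an agent that alkylates DNA.

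Expression was measured on 25 Affymetrix arrays of frozen liver from mice of the strain FVB;129. All mice labelled with a deletion carried a Cre recombinase that the albumin promoter drives in hepatocytes. How completely the floxed genes were deleted in hepatocytes, and whether other liver cells kept them, was not tested. The groups used here were untreated wild type (WT, 3 arrays), untreated mice deleted for both Rb and p53 (DKO, 3 arrays), and, 24 h after DEN, WT (5 arrays), p53-deleted (p53KO, 5 arrays), Rb-deleted (RbKO, 4 arrays) and DKO mice (5 arrays). DEN was injected into the abdomen at 20 mg/kg at 14 days of age. The labels of all 25 arrays, untreated ones included, give an age of 14 days. The untreated mice are labelled with no treatment, and the series text calls the control saline. Whether WT mice carried Cre or floxed alleles is not given in the sources used here, nor is a statement that replicates came from separate animals, so p-values measure only the spread between these arrays.

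The array names carry 3 different stamps, which are called sets here without saying what they mark. Set 1 held 16 arrays of all 6 groups, set 2 held 4 (untreated WT, DEN WT and DEN RbKO) and set 3 held 5 (DEN p53KO and DEN DKO). Set 2 stood apart on the first principal component, which took 25.8% of the variance: its arrays lay at 41.1 to 48.7, those of set 1 at -19.2 to -2.27 and those of set 3 at -4.84 to 9.61. The set therefore entered the fit as a fixed term, and differences are given within sets where they part from the fit. The mean log2 signal of 7 hepatocyte markers lay between 10.9 and 11.7 on every array. After DEN it was 11.21 to 11.38 in WT, 10.91 to 11.17 in p53KO, 10.97 to 11.15 in RbKO and 10.90 to 11.06 in DKO. Every DEN knockout array thus lay under every DEN WT array. Limma called 0 of the 7 lower in p53KO, 1 in RbKO and 1 in DKO against DEN WT, and their part in the members' differences was not tested. The 7 endothelial markers averaged 6.33 to 6.79 in DEN WT and 5.70 to 6.07 in DEN DKO, and the 9 markers of cycling cells 5.54 to 6.80 and 7.18 to 7.46; 7 neutrophil and myeloid markers averaged 4.77 to 4.94 in untreated WT and 6.35 to 7.10 in untreated DKO. None of the markers of these 4 lists lay under the dim floor. In whole liver, fewer cells of a type and less RNA per cell cannot be told apart. Rb1, the other targeted gene, passed the test in none of the 11 comparisons of the limma fit (unadjusted p under 0.05 in 2), with DEN WT at 5.04 to 6.02, RbKO at 5.55 to 6.28 and DKO at 5.18 to 5.82 log2. Within set 1 it was lower in DEN DKO than in DEN WT (-0.49, adjusted p = 0.0136). In the untreated groups all DKO arrays (4.76 to 5.02) lay under all WT arrays (5.30 to 5.76). That difference of -0.50 (SE 0.22, adjusted p = 0.336 in limma) was not called. Within set 1, Rb1 was higher after DEN than untreated in WT (0.59, adjusted p = 0.00807) and in DKO (0.49, adjusted p = 0.00629 in limma). Whether its probes lie in the deleted exons is not given in the sources used here, so this does not check the genotype.

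The stretch before the transcript start is shown for the 4 members that were called in at least 1 comparison and that hold a match to the p53 half-site, the decamer that p53 binds in pairs. Each is the 250 bases before the RefSeq start (GRCm38.p6), read 5′ to 3′ in the direction of the gene. Capitals mark the half-site matches and, in Cdkn1a and Ccng1, the pair of adjoining half-sites. The windows are Cdkn1a (first of 2 starts, chr17:29090729-29090978, plus strand), Ccng1 (chr11:40755287-40755536, minus strand), Mdm2 (chr10:117710759-117711008, minus strand) and Ppm1d (chr11:85311004-85311253, plus strand).
Cdkn1a: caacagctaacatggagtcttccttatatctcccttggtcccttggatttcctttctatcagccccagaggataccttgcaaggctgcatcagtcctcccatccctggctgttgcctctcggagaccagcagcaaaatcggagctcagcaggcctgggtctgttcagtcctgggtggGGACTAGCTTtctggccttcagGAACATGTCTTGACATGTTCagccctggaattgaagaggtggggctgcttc
Ccng1: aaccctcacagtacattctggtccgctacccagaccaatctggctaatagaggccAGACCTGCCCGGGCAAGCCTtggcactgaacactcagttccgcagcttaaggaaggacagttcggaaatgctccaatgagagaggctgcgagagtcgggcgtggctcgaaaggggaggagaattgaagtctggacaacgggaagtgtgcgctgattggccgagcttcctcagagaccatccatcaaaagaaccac
Mdm2: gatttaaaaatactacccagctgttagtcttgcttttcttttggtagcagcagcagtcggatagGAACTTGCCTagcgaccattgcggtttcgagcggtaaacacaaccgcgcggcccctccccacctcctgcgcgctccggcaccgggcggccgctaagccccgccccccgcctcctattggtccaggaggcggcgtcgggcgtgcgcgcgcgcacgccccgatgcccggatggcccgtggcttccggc
Ppm1d: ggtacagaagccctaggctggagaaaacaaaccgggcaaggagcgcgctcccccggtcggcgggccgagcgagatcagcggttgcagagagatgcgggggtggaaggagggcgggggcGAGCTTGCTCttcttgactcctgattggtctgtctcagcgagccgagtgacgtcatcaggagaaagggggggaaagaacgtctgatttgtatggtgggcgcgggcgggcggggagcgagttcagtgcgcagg
In Cdkn1a the adjoining pair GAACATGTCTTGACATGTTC spans bases -51 to -32 with 1 mismatch in its 20 bases, and a further half-site, GGACTAGCTT, lies at -73 to -64. In Ccng1 the pair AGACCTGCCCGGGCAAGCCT spans -195 to -176, also with 1 mismatch. Such a pair was found in 25 of 32851 RefSeq windows of this length (0.0761%), whereas a single half-site was found in 2341 of them (7.13%). The tolerance of 1 mismatch was chosen after these windows had been seen.

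Mdm2 and Ppm1d each hold a single half-site, GAACTTGCCT at -186 to -177 and GAGCTTGCTC at -132 to -123. The p53-responsive promoter of Mdm2 is known to lie inside the gene, outside this window. Single half-sites also lay in the windows of Trp53 (GGACTTGCCC) and of the second Rchy1 start (GAGCTTGTCT). No match stood in these letters in either window of Mdm4, at the first Rchy1 start or at the second Cdkn1a start, 2790 bases downstream of the first. The p53 half-site reads the same on both strands and was searched by its published consensus. CCAAT boxes (CCAAT or its reverse ATTGG, in 33.8% of all windows) lay 3 times before Ccng1 and once each before Mdm2, Ppm1d and Trp53, and the cAMP response element TGACGTCA (1.55% of all windows) lay before Ppm1d at -85 to -78. These are matches of letters, not measured binding.

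**Figure D1:**
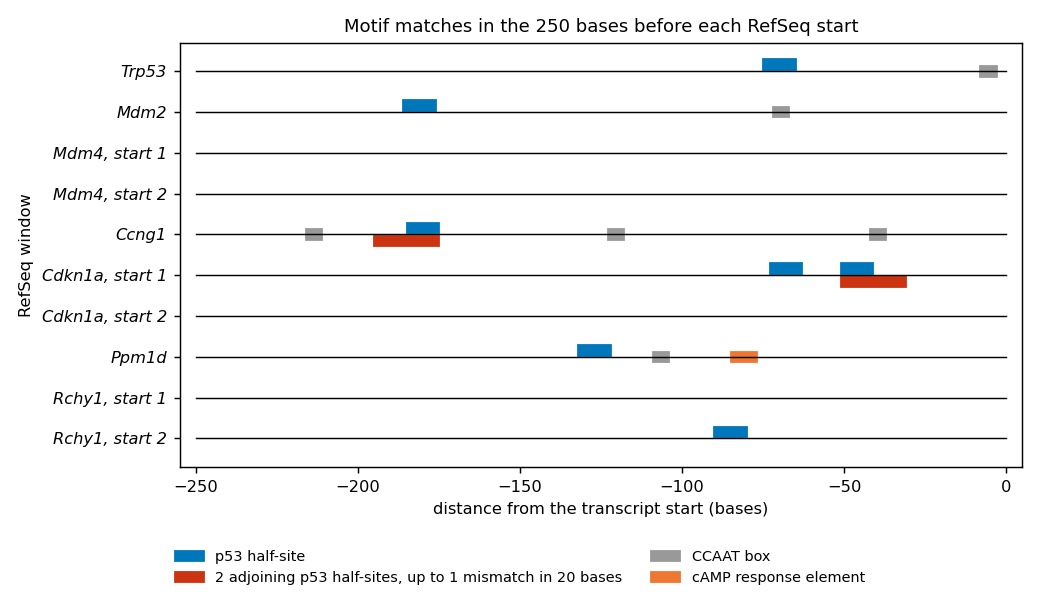
Positions of motif matches in the 250 bases before each of the 10 RefSeq starts of the 7 genes; the x axis is the distance from the transcript start in bases, and each row is 1 window. Adjoining pairs of half-sites (red) occur in the windows of Ccng1 and of the first Cdkn1a start, and both Mdm4 windows hold no match.

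DEN raised Ccng1 and Mdm2 in WT liver. These were 2 of the 5 members with a probe set of their own, whereas 2.08% of all genes tested were called higher and 3.99% in either direction (limma, Benjamini-Hochberg adjusted p under 0.05 over 15951 genes). The median log2 difference of the 5 was 0.55, that of all genes 0.02.

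Ccng1 (probe set 10385271) read 7.13, 6.98 and 8.12 log2 on the untreated WT arrays. After DEN it read 10.05, 10.04, 9.69, 9.94 and 9.94. Every DEN array lay above every untreated one, and the highest untreated array was that of set 2. The fitted rise was 2.49 (SE 0.21, adjusted p = 3.70e-08 in limma), a 5.62-fold difference, which ranked 3 of all 15951 genes by p. Within set 1 alone it was 2.87, and within set 2 alone 1.82 (adjusted p = 0.00618).

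Mdm2 (probe set 10372668) read 6.24, 6.43 and 6.59 log2 in untreated WT. It read 8.24, 8.16, 7.35, 7.99 and 7.59 after DEN. The groups did not overlap, but the DEN arrays ranged more widely than those of Ccng1. The rise was 1.44 (SE 0.23, adjusted p = 0.000587 in limma), or 2.71-fold. In set 2 alone, with 1 untreated array against 2, it was 1.20 and missed the threshold (adjusted p = 0.0544).

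Mdm4 (probe set 10357773), the relative of Mdm2 with little ligase activity of its own, was not called. It read 6.92, 6.38 and 7.41 log2 in untreated WT and 6.90, 6.62, 6.34, 7.08 and 7.06 after DEN, so the groups overlapped. Arrays of set 2 were the highest in both groups. The difference was -0.15 (SE 0.17, adjusted p = 0.717 in limma).

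The ligase Rchy1 (probe set 10531290) read 6.23, 6.15 and 5.59 log2 in untreated WT and 7.10, 6.58, 6.39, 6.17 and 6.29 after DEN. Only 1 untreated array, that of set 2, lay clearly under the rest. The difference of 0.55 (SE 0.16) just missed the threshold with an adjusted p of 0.0564 in limma; it passed without replicate 3 of DEN WT (0.63, adjusted p = 0.0291) and under 4 of 14 other settings. The phosphatase Ppm1d (probe set 10379891) read 6.35, 6.36 and 6.20 log2 untreated and 6.91, 6.76, 6.46, 6.32 and 6.72 after DEN. Its difference of 0.34 (SE 0.15, adjusted p = 0.232 in limma) was not called.

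Cdkn1a was followed through its shared probe set (10443463), in a fit of all 23409 listed probe sets without the dim filter, of which 3.09% were called in DEN against untreated WT. Both RefSeq transcripts listed for the probe set are Cdkn1a's, and the second symbol lies on another chromosome. The probe set read 8.00, 8.29 and 6.78 log2 in untreated WT. After DEN it read 9.51, 9.52, 8.90, 8.27 and 8.39. The set 2 arrays were the lowest in both groups, and they alone made the groups overlap: within each set every DEN array was higher. The fitted rise was 1.28 (SE 0.18, adjusted p = 0.000132 in limma), or 2.43-fold, with 1.16 in set 1 and 1.55 in set 2 (adjusted p = 0.0547).

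**Figure D2:**
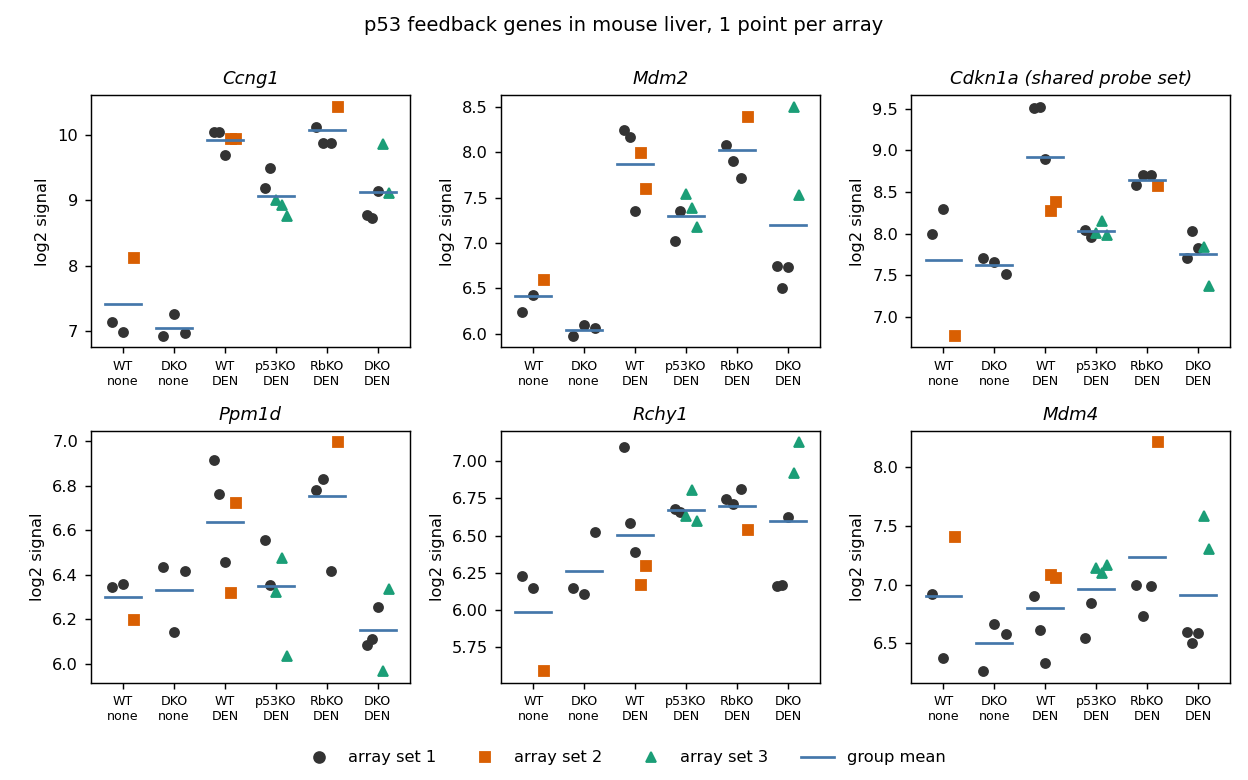
The log2 signal of the 6 measured genes on each of the 25 arrays, by group (x axis), with 1 point per array, a symbol for each array set and a line at the group mean. Ccng1 and Mdm2 on DEN arrays of WT lie above all untreated WT arrays, and Mdm4 groups overlap.

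In liver labelled as deleted for both genes, DEN also raised Ccng1 and Mdm2. Again 2 of 5 members were called higher, in a comparison in which 4.49% of all genes were called higher and 16.5% lower; of all calls 21.4% were higher, and 9.08% with each array centred on its median. Ccng1 read 6.93, 7.26 and 6.97 log2 in untreated DKO. It read 8.77, 8.73, 9.15, 9.86 and 9.11 after DEN. All DEN arrays lay at least 1 unit above the untreated ones, and the rise was 2.04 (SE 0.22, adjusted p = 1.89e-06 in limma), or 4.10-fold. All untreated DKO arrays belong to set 1, and within it the rise was 1.83.

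Mdm2 read 5.98, 6.09 and 6.07 log2 in untreated DKO and 6.74, 6.50, 6.73, 8.50 and 7.53 after DEN. The groups did not overlap. The 2 highest arrays were those of set 3, of which 1 exceeded every DEN WT array. The rise was 0.85 (SE 0.25, adjusted p = 0.0150 in limma), and 0.62 within set 1 (adjusted p = 0.0169). Without replicate 1 of untreated DKO it was 0.82 and lost the call (adjusted p = 0.0547).

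Cdkn1a did not pass in DKO. Its probe set read 7.70, 7.66 and 7.52 log2 untreated and 7.70, 8.03, 7.83, 7.84 and 7.37 after DEN, with overlapping groups. The difference was 0.17 (SE 0.19, adjusted p = 0.561 in limma). Ppm1d (-0.15, SE 0.16), Rchy1 (0.20, SE 0.17) and Mdm4 (0.14, SE 0.18) were not called either, with adjusted p from 0.444 to 0.599. The untreated DKO arrays differed from the others in their neutrophil and myeloid markers, of which 5 of 7 were called lower after DEN in DKO, and 6 of 7 endothelial markers were also called lower; their part in these differences was not tested.

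The difference between the DKO and the WT response was called for Cdkn1a alone among the 6 measured genes. Its response was smaller in DKO by 1.11 log2 (difference -1.11, SE 0.26, adjusted p = 0.00873 in limma; 7.80% of the 23409 probe sets were called), and by 0.94 within set 1 (adjusted p = 0.0174). Without replicate 3 of untreated WT, the single untreated array of set 2, the difference was -0.86 and lost the call (adjusted p = 0.0675). Without a term for the array set it was -1.10 (adjusted p = 0.116). Of the 7 neutrophil and myeloid markers 4 were called lower in this comparison, as were 4 of the 7 endothelial ones, and their part was not tested.

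Of the 5 members with probe sets of their own, none was called for this difference by limma, against 9.91% of all genes, and 1 had an unadjusted p under 0.05 (Ppm1d, -0.48, SE 0.22, adjusted p = 0.166). Mdm2 differed by -0.59 (SE 0.34, adjusted p = 0.311) and Ccng1 by -0.45 (SE 0.31, adjusted p = 0.400). Within set 1 both were larger and called: -0.97 for Mdm2 (adjusted p = 0.0338) and -1.04 for Ccng1 (adjusted p = 0.00737), where 7.35% of all genes were called. In set 1, the DEN DKO arrays of Ccng1 read 8.73 to 9.15 log2, and the 2 arrays of set 3 that the full fit adds read 9.86 and 9.11. The full fit also adds set 2, whose untreated WT array stood at 8.12, and without that array (replicate 3) the Ccng1 difference was -0.76 (adjusted p = 0.174).

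**Figure D3:**
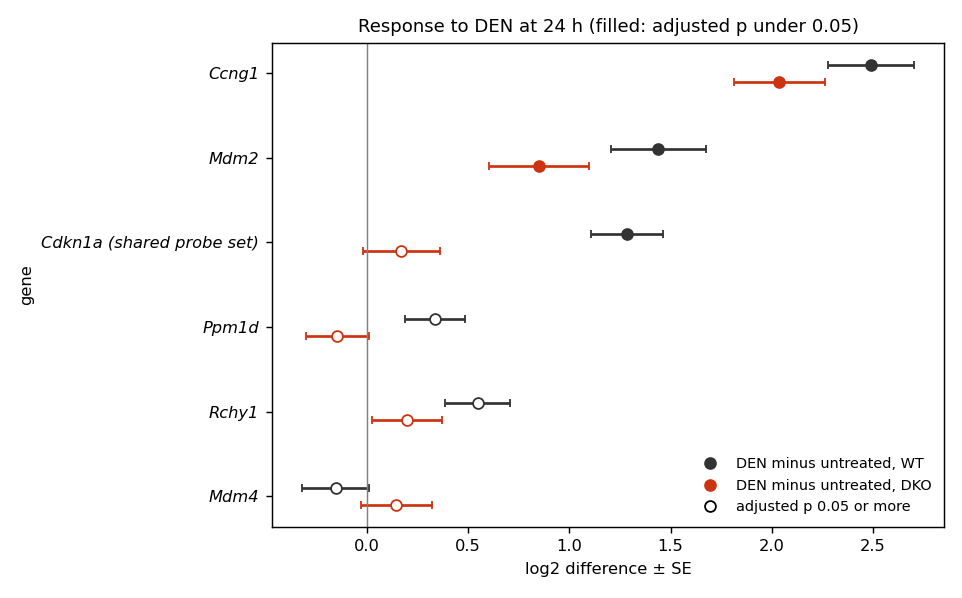
Fitted log2 difference between DEN and untreated liver (x axis, bars are 1 SE) for each of the 6 measured genes, in WT (black) and DKO (red), with filled points for adjusted p under 0.05. Ccng1 and Mdm2 are filled in both genotypes, Cdkn1a in WT with 1.28 and open in DKO with 0.17.

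Without DEN, limma called 0 of 5 members between DKO and WT, against 1.11% of all genes, and 0 had an unadjusted p under 0.05. The 3 untreated DKO arrays of Mdm2 (5.98 to 6.09 log2) all lay under the 3 WT arrays (6.24 to 6.59), but the difference of -0.32 (SE 0.27, adjusted p = 0.707) was not called. The Cdkn1a probe set differed by -0.34 (SE 0.21, adjusted p = 0.625). Set 1 holds 2 of the 3 WT arrays, and there Cdkn1a differed by -0.52 (adjusted p = 0.0891). In fits with array weights or with only these 2 groups, the value was called at -0.48 (adjusted p = 0.0288) and -0.52 (adjusted p = 0.0448).

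After DEN, liver labelled p53KO held less Cdkn1a signal than WT; Mdm2 was lower at a value near the threshold. The Cdkn1a probe set read 8.05, 7.96, 8.00, 8.15 and 7.99 log2 in p53KO, all under the lowest DEN WT array (8.27). The difference was -1.16 (SE 0.19, adjusted p = 0.00320 in limma), or 2.23-fold, in a fit where 1.01% of listed probe sets were called; it passed with any 1 array of the comparison left out. The p53KO arrays spanned 0.19 log2 over both sets they came from, against 1.25 in DEN WT. The lowest DEN WT arrays were those of set 2, which holds no p53KO array. Within set 1 the span was 0.09 over 2 p53KO arrays and 0.62 over 3 DEN WT arrays.

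Mdm2 read 7.02, 7.35, 7.54, 7.38 and 7.18 log2 in p53KO. Only the lowest DEN WT array (7.35) fell within that range. The difference was -0.97 (SE 0.25, adjusted p = 0.0441 in limma), and Mdm2 was the 1 of 5 members called lower, against 1.07% of all genes. The call was lost in 5 of 13 other settings, among them no set term (-0.57, adjusted p = 0.169) and the set as a random block (-0.82, adjusted p = 0.0576). It was also lost without replicate 1, 2 or 4 of DEN WT or without replicate 1, 3, 4 or 5 of p53KO, with adjusted p from 0.0551 to 0.0939 and differences from -1.08 to -0.82.

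Ccng1 read 9.18, 9.49, 9.01, 8.92 and 8.76 log2 in p53KO, all under the lowest DEN WT array (9.69). The difference of -0.74 (SE 0.23) missed the threshold in the limma fit with an adjusted p of 0.0834. It passed in 5 of 13 other settings, among them set 1 alone (-0.59, adjusted p = 0.0372). These p53KO arrays still lay above all untreated arrays of WT, which reached 8.12. Ppm1d (-0.25, SE 0.16), Rchy1 (-0.22, SE 0.17) and Mdm4 (0.07, SE 0.18) were not called, with adjusted p from 0.454 to 0.879. In p53KO the endothelial markers averaged 5.83 to 6.32 log2 and those of cycling cells 6.82 to 7.55, ranges that lay under and over those of DEN WT; none of the 7 and none of the 9 was called by limma, and their part in the members' differences was not tested.

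Between RbKO and WT after DEN, Mdm4 was called and the other measured genes were not. Ccng1 read 10.13, 9.88, 9.88 and 10.43 log2 in RbKO (difference 0.21, SE 0.20, adjusted p = 0.543 in limma). Mdm2 read 8.08, 7.90, 7.72 and 8.39 (difference 0.17, SE 0.22, adjusted p = 0.672). For both genes the highest array was the single one of set 2, and the groups overlapped. Cdkn1a read 8.58, 8.71, 8.71 and 8.57, a difference of -0.40 (SE 0.17, adjusted p = 0.138) that pointed in opposite directions within set 1 (-0.64, adjusted p = 0.0250) and set 2 (0.24, adjusted p = 0.564). Without replicate 4 of RbKO, the array of set 2, it was -0.70 and called (adjusted p = 0.0217). Ppm1d (0.11, SE 0.14) and Rchy1 (0.13, SE 0.15) had adjusted p of 0.660 and 0.640. In this comparison 5 of 9 cycling-cell markers were called higher and 0 of 7 endothelial markers were called. The part of these markers in the members' differences was not tested.

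Mdm4 was the 1 of 5 members called in RbKO, where 5.23% of all genes were called higher and 11.4% in either direction. It read 7.00, 6.74, 6.99 and 8.21 log2 in RbKO, and the last array, from set 2, stood 1.21 above the next. The fitted difference was 0.55 (SE 0.15, adjusted p = 0.0220 in limma). It was 0.29 in set 1 (adjusted p = 0.363) and 1.14 in set 2 (adjusted p = 0.0126). Leaving out that RbKO array gave 0.33 (adjusted p = 0.287), and the call was also lost without replicate 4 (0.50, adjusted p = 0.0556) or 5 (0.50, adjusted p = 0.0601) of DEN WT, which are the other 2 DEN arrays of set 2.

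In DEN-treated DKO liver, Mdm2, Ccng1 and Ppm1d were lower than in DEN WT. These were 3 of 5 members, against 9.14% of all genes called lower, with a median of -0.46 for the 5 and -0.03 for all genes. The DEN WT arrays are the same as in the comparisons above. The Cdkn1a probe set lay at 7.37 to 8.03 log2, under every DEN WT array, and differed by -1.45 (SE 0.18, adjusted p = 4.11e-05 in limma), or 2.73-fold; 9.10% of listed probe sets were called. Its call held with any 1 array of the 2 groups left out.

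Mdm2 differed by -0.91 (SE 0.23, adjusted p = 0.0115 in limma) between DEN DKO and DEN WT, and by -1.26 within set 1. The call held with any 1 array left out, at adjusted p up to 0.0497, but not without the set term (-0.66, adjusted p = 0.0946). The set 3 array at 8.50 lay above all DEN WT arrays, and the 3 set 1 arrays (6.50 to 6.74) lay under all of them. Ccng1 differed by -0.68 (SE 0.21, adjusted p = 0.0346), and by -1.04 in set 1. It lost the call without replicate 1 or 2 of DEN WT or replicate 1, 2 or 3 of DEN DKO (-0.70 to -0.55, adjusted p 0.0612 to 0.127).

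Ppm1d read 6.08, 6.11, 6.25, 5.97 and 6.33 log2 in DEN DKO. All but the highest lay under the lowest DEN WT array (6.32). The difference was -0.46 (SE 0.15, adjusted p = 0.0385 in limma), and -0.56 within set 1. It lost the call without replicate 1, 2 or 5 of DEN WT or replicate 1, 2, 3 or 4 of DEN DKO (-0.49 to -0.37, adjusted p 0.0526 to 0.135). Rchy1 (-0.22, SE 0.16, adjusted p = 0.435) and Mdm4 (0.16, SE 0.16, adjusted p = 0.606) were not called. In this comparison 6 of 7 endothelial markers were called lower and 5 of 9 cycling-cell markers higher, and their part in the members' differences was not tested.

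**Figure D4:**
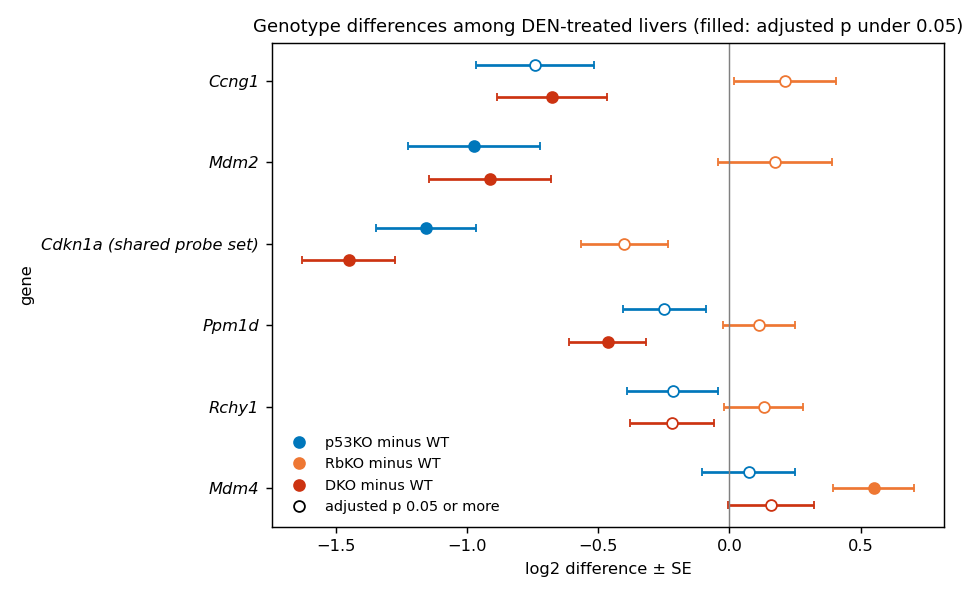
Fitted log2 difference from DEN WT (x axis, bars are 1 SE) for each of the 6 measured genes in p53KO (blue), RbKO (orange) and DKO (red) after DEN, with filled points for adjusted p under 0.05; the 3 comparisons share the DEN WT arrays. Cdkn1a lies at -1.16 in p53KO and -1.45 in DKO, and Mdm4 at 0.55 in RbKO.

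The knockouts were also set against each other. DKO was lower than RbKO for Mdm2 (-1.09, SE 0.24, adjusted p = 0.0200 in limma) and Ccng1 (-0.89, SE 0.21, adjusted p = 0.0389), 2 of 5 members against 0.884% of all genes called lower. Ccng1 in DKO reached at most 9.86 log2, just under the lowest RbKO array (9.88), while 1 DKO array of Mdm2 (8.50) exceeded all RbKO arrays (up to 8.39). The Cdkn1a probe set differed by -1.05 (SE 0.18, adjusted p = 0.00411; 0.594% of listed probe sets called), with no overlap; without the set term it was -0.88 and lost the call (adjusted p = 0.184). Ppm1d (-0.58, SE 0.15) did not overlap either but missed the threshold (adjusted p = 0.0558); it passed without replicate 3 of RbKO (-0.71, adjusted p = 0.0280) or replicate 5 of DKO (-0.62, adjusted p = 0.0437). The Mdm2 call was lost without replicate 1 or 4 of RbKO or replicate 1, 2 or 3 of DKO (adjusted p 0.0556 to 0.0877), and the Ccng1 call with any array of either group left out except replicate 4 of DKO (0.0597 to 0.142).

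p53KO was lower than RbKO for Mdm2 by 1.15 log2 (difference -1.15, SE 0.25, adjusted p = 0.0312 in limma), 1 of 5 members against 0.382% of all genes called lower. All p53KO arrays of Mdm2 (up to 7.54) lay under all RbKO arrays (from 7.72). Without p53KO replicate 1 or RbKO replicate 1, 2 or 4 the call was lost (adjusted p 0.0545 to 0.0962), as within set 1 (-0.71, adjusted p = 0.0621). Ccng1 (-0.95, SE 0.23, adjusted p = 0.0510) and the Cdkn1a probe set (-0.76, SE 0.19, adjusted p = 0.0870) also separated the groups without overlap but missed the threshold. Ccng1 passed without replicate 2 of p53KO (-1.20, adjusted p = 0.0324). It also passed in 7 of 13 other settings, among them set 1 alone (-0.63, adjusted p = 0.0401 in limma). The Cdkn1a probe set passed in 3 of 11 other settings, among them set 1 alone (-0.66, adjusted p = 0.0415 in limma).

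Between DKO and p53KO, the pair that differs by the deletion of Rb, limma called 0 of 5 members, 0 had an unadjusted p under 0.05, and 1.87% of all genes were called. The fitted differences of Mdm2 (0.06, SE 0.21) and Ccng1 (0.06, SE 0.19) came from opposite signs within the sets. Mdm2 was -0.53 in set 1 and 0.65 in set 3, Ccng1 -0.45 and 0.58, and Rchy1 -0.35 and 0.35. Cdkn1a was lower in both, by -0.15 and -0.44 (fit -0.29, SE 0.16, adjusted p = 0.366). The set 3 arrays of Mdm2 were 7.54, 7.38 and 7.18 log2 in p53KO and 8.50 and 7.53 in DKO. The test of additivity, DKO minus p53KO minus RbKO plus WT, called 0 of 5 members in limma against 0.426% of all genes; 1 had an unadjusted p under 0.05 (Mdm4, -0.47, SE 0.21, adjusted p = 0.245).

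The group means over all sets, not adjusted for the set, are given as a description. For Ccng1 they ran from untreated DKO (7.05 ± 0.18, SD, n = 3) and untreated WT (7.41 ± 0.62, n = 3) through DEN p53KO (9.08 ± 0.28, n = 5) and DEN DKO (9.12 ± 0.45, n = 5) to DEN WT (9.93 ± 0.15, n = 5) and DEN RbKO (10.1 ± 0.26, n = 4). The steps within these 3 pairs were not called; those from untreated WT to DEN WT and from DEN DKO to DEN WT were, and that from untreated WT to DEN p53KO was not compared. For Mdm2 the order was the same except that DEN DKO (7.20 ± 0.82, n = 5) lay under DEN p53KO (7.29 ± 0.20, n = 5). For Cdkn1a the order was untreated DKO (7.63 ± 0.10, n = 3), untreated WT (7.69 ± 0.80, n = 3), DEN DKO (7.76 ± 0.24, n = 5), DEN p53KO (8.03 ± 0.07, n = 5), DEN RbKO (8.64 ± 0.08, n = 4) and DEN WT (8.92 ± 0.59, n = 5), where no tested pair of neighbours was called. Within set 1 parts of these orders differed. Ccng1 was lower in DEN DKO (8.88) than in DEN p53KO (9.34), and Mdm2 read 7.90 in DEN RbKO and 7.92 in DEN WT. For Cdkn1a, untreated WT (8.15) lay above DEN DKO (7.86) and DEN p53KO (8.00). Over all sets, the means of Ppm1d lay between 6.15 ± 0.15 (SD, n = 5) in DEN DKO and 6.75 ± 0.24 (n = 4) in DEN RbKO, those of Rchy1 between 5.99 ± 0.35 (n = 3) in untreated WT and 6.70 ± 0.12 (n = 4) in DEN RbKO, and those of Mdm4 between 6.50 ± 0.21 (n = 3) in untreated DKO and 7.23 ± 0.66 (n = 4) in DEN RbKO.

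Over all 11 comparisons Mdm2 was called in 6, the Cdkn1a probe set in 5, Ccng1 in 4, Mdm4 and Ppm1d in 1 each, and Rchy1 in none of the limma tests (unadjusted p under 0.05 in 2). Rchy1 lay between 5.59 and 7.13 log2 over all arrays, and its DEN p53KO arrays between 6.60 and 6.80. Across the 16 arrays of set 1, which share one set and hold all groups, the log2 values of Mdm2 and Ccng1 had a Pearson correlation of 0.92 and those of Mdm2 and Cdkn1a 0.86, whereas Mdm4 correlated with the other members at 0.28 to 0.60. These describe the same group differences and are not separate evidence.

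The genes most like each member over these 16 arrays were taken by Pearson correlation. For Mdm2 they were Vps36 (0.99), 1700007K13Rik (0.98) and Tmbim4 (0.98), the last on the same chromosome with a position 13 protein-coding genes away. All of these 3 rose after DEN in WT, 1700007K13Rik by 3.05 log2 (adjusted p = 2.85e-07 in limma). For Ccng1 they were Ddias (0.98), Nudcd2 (0.96), which is its neighbour on the chromosome, and Cd2ap (0.96). Ddias rose by 2.56 (adjusted p = 1.09e-05), while Nudcd2 (0.57, adjusted p = 0.0812) and Cd2ap (0.10, adjusted p = 0.832) were not called. For Cdkn1a they were Abhd4 (0.94), Dglucy (0.92) and Nme4 (0.91), which rose by 0.79, 0.97 and 0.85. For Ppm1d they were Psmd13, Gsr and Klhl42 (0.88), for Rchy1 Agpat5, Dennd10 and Pigf (0.91 to 0.93), and for Mdm4 Vamp3, Snx16 and Fem1c (0.81 to 0.82).

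The wider pathway was followed in 31 tested genes, of 33 listed, that p53 is known to activate, members excluded. In WT, DEN raised 12 of the 31 and lowered none, against 2.08% of all genes called higher, with a median of 0.52 against 0.02 for all genes. Polk, a polymerase that copies past damaged bases, rose by 1.29 (SE 0.15, adjusted p = 9.88e-06 in limma). Phlda3, an inhibitor of Akt, rose by 1.43 (SE 0.18, adjusted p = 2.44e-05), the kinase Plk2 by 1.74 (SE 0.29, adjusted p = 0.000740) and the nuclease Aen by 0.95 (SE 0.17, adjusted p = 0.00127). The count was 5 without replicate 1 and 7 without replicate 2 of untreated WT, and 17 within set 1, where 11% of all genes were called.

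In DKO, 7 of the 31 rose and 3 fell after DEN, against 4.49% and 16.5% of all genes, with a median of 0.18. Polk (0.87, SE 0.16) and Phlda3 (0.90, SE 0.19) rose there as well, and Dcxr, a carbonyl reductase (-0.90, SE 0.21), and Sesn1, a stress-induced sestrin (-0.62, SE 0.15), fell (adjusted p from 0.000332 to 0.00371 in limma). The response was lower in DKO for 6 of 31 and higher for none, against 8.54% of all genes called lower, with a median difference of -0.26 against -0.03 for all genes. Those with the smallest p were Dcxr (-1.45, SE 0.29, adjusted p = 0.00256), the death receptor Fas (-1.19, SE 0.27, adjusted p = 0.00566), Gadd45a (-1.14, SE 0.28, adjusted p = 0.0102) and Plk2 (-1.69, SE 0.42, adjusted p = 0.0117). Gadd45a, a growth arrest gene, was also the 1 gene of the 31 that differed between untreated DKO and WT, by 1.26 (SE 0.22, adjusted p = 0.00396; not called without replicate 2 of untreated WT). The count of 1 was 3 without replicate 3 of untreated WT, 4 without set 2 and 6 with array weights.

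**Figure D5:**
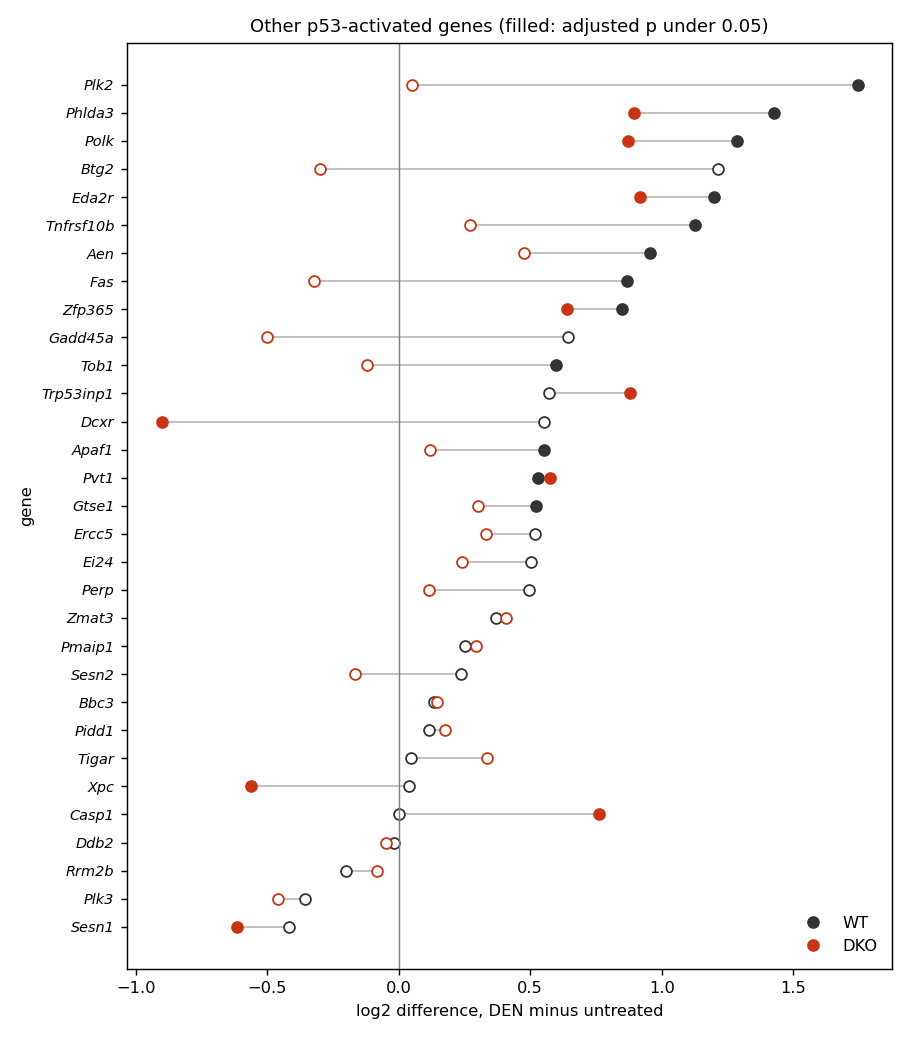
Log2 difference between DEN and untreated liver (x axis) for the 31 other p53-activated genes (rows), in WT (black) and DKO (red), filled where the adjusted p was under 0.05. In WT 12 points are filled, all to the right of 0; in DKO 7 are filled to the right and 3 to the left.

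After DEN, 5 of the 31 were lower in p53KO than in WT and none higher, against 1.07% of all genes called lower, with a median of -0.40 against -0.01. They included Dcxr (-1.34, SE 0.21), Phlda3 (-0.93, SE 0.19), the apoptosome gene Apaf1 (-0.76, SE 0.16) and Tob1 (-0.65, SE 0.15), with adjusted p from 0.00216 to 0.0289 in limma. The count fell to 2, 1 and 2 without DEN WT replicate 2, p53KO replicate 1 and p53KO replicate 2, and was 10 within set 1, where 5.91% of all genes were called. In DKO against WT, 11 were lower and none higher (9.14% of all genes called lower; median -0.46), among them Dcxr (-1.39, SE 0.20), Phlda3 (-1.14, SE 0.18), the death receptor Tnfrsf10b (-1.11, SE 0.21) and Tob1 (-0.73, SE 0.14).

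In RbKO 2 of the 31 were lower than in WT, Dcxr (-1.09, SE 0.19, adjusted p = 0.00136 in limma) and Phlda3 (-0.52, SE 0.17, adjusted p = 0.0457), and 1 was higher, Polk (0.54, SE 0.14, adjusted p = 0.0155); 11.4% of all genes were called, and without replicate 4 of RbKO the count was 1. Against RbKO, 5 were lower in DKO (0.884% of all genes), led by Polk (-1.20, SE 0.15), and 4 in p53KO (0.382% of all genes), led by Polk (-1.14, SE 0.16) and Apaf1 (-0.92, SE 0.16). The count of 5 was 10 without replicate 4 of DKO and 1 to 3 without replicate 1, 2 or 3 of DKO or replicate 1, 2 or 4 of RbKO. The count of 4 was 1 or 2 without replicate 1, 2 or 3 of p53KO or replicate 1, 3 or 4 of RbKO. Between DKO and p53KO limma called none of the 31 (3 had an unadjusted p under 0.05).

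Genes that act on p53 from above were followed in WT too. Of 22 tested damage kinases and modifiers of p53, DEN raised 1, Mapk14 (p38 alpha, 0.41, SE 0.12, adjusted p = 0.0451 in limma), against 3.99% of all genes called. Without any 1 of the untreated WT arrays, among others, that count was 0. In DKO 2 rose and 5 fell, in a comparison in which 21% of all genes were called. Those with the smallest p were Csnk1d (-0.99, SE 0.14), Hipk2 (-0.85, SE 0.14), Kat5 (-0.89, SE 0.17) and Mapk14 (-0.54, SE 0.12). Chek1, the kinase of the replication checkpoint, was higher than in DEN WT in p53KO (1.17, SE 0.24, adjusted p = 0.0164), RbKO (1.14, SE 0.21, adjusted p = 0.00204) and DKO (1.26, SE 0.23, adjusted p = 0.000853), 3 comparisons that share the DEN WT arrays. The means of the 9 cycling-cell markers in these groups were 6.82 to 7.55, 6.97 to 7.22 and 7.18 to 7.46, and their part was not tested. In p53KO Chek1 was the 1 of the 22 called, where 284 of 15951 genes were called. That count was 0 without replicate 1 of p53KO and in a fit of only the groups compared. In DKO 1 of the 22 was called higher and 2 lower, where 1887 of 15951 genes were called.

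In RbKO 6 of the 22 were higher and 3 lower than in WT, with Prkdc (0.74, SE 0.13, adjusted p = 0.00175) and Atr (0.72, SE 0.14, adjusted p = 0.00336), kinases of the damage response, next to Chek1. The count of 9 was 2 without replicate 4 of RbKO, 5 without replicate 5 of DEN WT and 0 without set 2, against 11.4% of all genes called. Of 23 other ligases, deubiquitinases and cofactors of p53 or Mdm2, limma called none after DEN in WT, against 3.99% of all genes. Of these 23, 4 had an unadjusted p under 0.05. In DKO 8 fell and 1 rose (16.5% and 4.49% of all genes; 5 in all without replicate 2 of untreated DKO), led by the ligases Stub1 (-0.96, SE 0.13, adjusted p = 1.87e-05), Trim28 (-0.79, SE 0.16, adjusted p = 0.00116) and Huwe1 (-0.56, SE 0.14, adjusted p = 0.00403). In p53KO 1 was higher than in DEN WT, Topors (0.60, SE 0.15, adjusted p = 0.0345 in limma). The count was 0 without DEN WT replicate 2 or p53KO replicate 1 or 2. In that comparison 284 of 15951 genes were called, 39.8% of them higher.

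A further list held paralogs of the members and also the ubiquitin ligases Rbbp6 and Rnf4, which are not paralogs. Of its 15 tested genes, 1 was called after DEN in WT, against 3.99% of all genes. This was the phosphatase Ppm1k, which fell (-1.05, SE 0.26, adjusted p = 0.0173 in limma). The count was 0 without any 1 of the untreated WT arrays. Ppm1k fell in DKO too (-1.26, SE 0.27, adjusted p = 0.00150). Cdkn1b (p27), a relative of Cdkn1a, rose in DKO (1.06, SE 0.28, adjusted p = 0.00696), where Cdkn1a itself was not called. Of the 15 genes of this list 1 rose and 1 fell in DKO, a comparison in which 21% of all genes were called. Of 17 tested partners of Ccng1 and Cdkn1a, 3 were called in WT: Cdk6 fell (-0.60, SE 0.13, adjusted p = 0.00770), and Cdk1 (0.82, SE 0.19, adjusted p = 0.0103) and Pcna (0.42, SE 0.12, adjusted p = 0.0477) rose. The share over all genes was 3.99%, and the count of 3 was 1 without replicate 1 or 2 of untreated WT and 0 to 7 over all settings. In DEN DKO against DEN WT, cyclin D1 (Ccnd1) was lower (-1.24, SE 0.20, adjusted p = 0.000356) and cyclin E2 (Ccne2) higher (1.05, SE 0.24, adjusted p = 0.00524), 2 cyclins whose kinases Cdkn1a binds. Of the 17 partners 2 were called higher and 3 lower there, where 1887 of 15951 genes were called, 22.7% of them higher. In the same comparison 5 of 9 cycling-cell markers were called higher, and their part was not tested.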

How the data were processed

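Total RNA of frozen liver was amplified (WT-Ovation Pico), labelled with biotin and hybridized to 1-colour arrays, per the labels' protocols. The deposited values are log2 signals made by the authors with RMA in Affymetrix Expression Console 1.1, per the submitters' processing notes; the genome build and whether all arrays were normalized together are not given in the sources used here. Of 35555 probe sets, 21789 were listed with 1 symbol, 1620 with several and 12146 not listed. Symbols were updated through a RefSeq table (GRCm38.p6). The brightest probe set stood for each gene, and 3987 of 19938 genes with a mean under the 20th percentile (3.33 log2) were left out. A linear model of group and array set over the 25 arrays was fitted in R 4.3.3 by limma 3.58.1 (lmFit, eBayes; statmod 1.5.0 for the random block); tests were two-sided, SE is the moderated standard error, and calls were made where the p-value, adjusted by Benjamini-Hochberg over the genes tested, was under 0.05. The scripts were tested on simulated data.

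The number of arrays, 3 to 5 a group, limits the precision. Named genes were the 7 members, Rb1, up to 4 genes of each list in order of p, and the 3 genes most correlated with each member in set 1. The members and lists were chosen with earlier results of these data known. Alternatives were other set terms, set choices, filters, probe set rules, normalizations, array weights, eBayes settings, fits of the compared groups only and single arrays left out. Promoter windows came from RefSeq tables; proteins were not used here.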

Additional observations from a re-analysis of the deposited data

Results flagged for a closer look

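One result among the members met a rule for a closer look: the DEN response of the Cdkn1a probe set differed between the genotypes, by -1.11 log2 in DKO against WT (SE 0.26, adjusted p = 0.00873 in limma), and the difference itself was the quantity tested. The probe set rose by 1.28 in WT and by 0.17 in DKO. None of the 24 sets of a measured gene and a group of 4 or 5 arrays held an array far from the others by Dixon's test.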

How the results depend on the processing

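No result reversed its direction while called. The rises of Ccng1, Mdm2 and Cdkn1a after DEN in WT, of Ccng1 in DKO, and the lower Cdkn1a of p53KO, DKO (against WT) and DKO (against RbKO) passed with any single array left out. The count of members called (of 5) moved by over 1.5 times as follows. DEN in WT gave 1 in set 2 alone. The DKO minus WT response gave 2 in set 1 alone and with array weights. p53KO against WT gave 2 in set 1 alone, without set 2 and with array weights, and 0 with no filter, all listed probe sets or only the groups compared. RbKO against WT gave 0 with no set term, a random block, set 1 alone, without set 2, array weights or only the groups compared. DKO against WT gave 1 with a repeated quantile normalization. DKO against RbKO gave 0 with no set term and 1 without set 2, with all listed probe sets or with repeated quantile normalization. p53KO against RbKO gave 0 with no set term or only the groups compared, and 2 with the 40th percentile filter, centring, repeated quantile normalization or array weights. Within 1.5 times, a count of 2 became 3 for DEN in WT (40th percentile filter, centring, repeated quantile normalization, array weights) and DKO against RbKO (random block, 40th percentile filter, centring, array weights), and 3 became 2 for DKO against WT (no set term, only the groups compared). With single arrays left out, the counts ran from 2 to 3 (DEN in WT), 1 to 2 (DEN in DKO), 0 to 1 (p53KO against WT and RbKO against WT), 1 to 3 (DKO against WT) and 0 to 2 (DKO against RbKO and p53KO against RbKO), and stayed at 0 in the other 4 comparisons. The causes were not tested. No paired analysis was possible because a number that recurs in another group does so on an array of another set, so that a block on it cannot be told apart from the set, and no label says that a number marks a shared animal or litter. Centring each array on its median moved the median of all genes by 0.10 in DEN DKO and by 0.12 in the response difference, and the share of calls that were higher from 21.4% to 9.08% and from 13.7% to 5.19%; in DKO against WT untreated and p53KO against WT that share went from 78.0% to 89.3% and from 39.8% to 29.4%. Sets 2 and 3 alone could be fitted only where they hold both groups. Signals near background compress differences, and 3 to 5 arrays a group limit what could be called.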
